A study of Mus musculus with 10 samples.

Results

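Heat shock and chaperone genes were followed in mouse regulatory T (Treg) cells, the CD4+ T cells that restrain immune responses and depend on the transcription factor Foxp3. The group comprised every gene whose symbol follows the naming of the HSP70 and HSP110, HSP90, small HSP, J-domain (Dnaj), HSP60 and HSP10 or CCT families, without those marked as pseudogene segments, which gave 82 of the 55291 genes counted. Of these, 45 were classed by symbol to the cytosol, 14 to the endoplasmic reticulum (ER), 8 to the mitochondrion and 5 to vesicles and endosomes, and 10 were given no compartment. A total of 76 passed the filter on low counts. The 6 that did not were Hspa1l, Dnajb3, Hspb3, Hspb7, Cct8l1 and Dnajc5g, the last without a read in any library.

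The mice were of the Foxp3YFP-cre genotype throughout, so that cells expressing Foxp3 carry a fluorescent reporter and Cre. Treg cells were sorted from subcutaneous tumours of Hepa1-6, a mouse hepatoma line, 23 days after injection (n = 4 libraries), and from subcutaneous tumours of E.G7, a mouse T lymphoma line made from EL4 cells, after 21 days (n = 2). The control cells came from lymph nodes of mice without a tumour (LN, n = 4). The groups therefore differ in tissue and cell isolation as well as in the tumour, and the labels give neither the age of the mice nor whether replicates were separate animals, so that the p-values rest on differences among libraries that may be technical in part.

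Chaperones hold unfolded proteins and let them fold. HSP70 proteins bind and release short hydrophobic stretches in a cycle driven by ATP, J-domain proteins bring them their clients and start that cycle, and HSP90 acts later on kinases and receptors. CCT and HSP60 are closed chambers in which whole proteins fold, in the cytosol and the mitochondrion. Heat and other stress that unfolds cytosolic proteins induces several of these genes through heat shock factor HSF1, while unfolded protein in the ER induces another set, with BiP at its centre, through ATF6, XBP1 and PERK. Activated T cells, which grow and secrete, are known to raise genes of both sets.

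Short stretches before the RefSeq start of 4 of the genes are shown because they hold the elements through which these responses are read. They are credited to RefSeq (GRCm38.p6, the mm10 assembly) and run 5′ to 3′ on the strand of the gene. Capitals mark the ER stress element (CCAAT and CCACG, 9 bases apart) in the first 3 and the heat shock element (GAA and TTC in turn, 2 bases apart) in the last. Hspa5 (BiP) is taken from chr2:34772019-34772048, plus strand, a stretch that lies inside the gene model counted here, which begins earlier than RefSeq's. Hsp90b1 is from chr10:86705510-86705694, minus strand, and Dnajc3 from chr14:118937821-118937850, plus strand. Hspe1, whose start lies head to head with that of Hspd1, is from chr1:55088053-55088082, plus strand.
Hspa5: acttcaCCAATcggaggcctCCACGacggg
Hsp90b1: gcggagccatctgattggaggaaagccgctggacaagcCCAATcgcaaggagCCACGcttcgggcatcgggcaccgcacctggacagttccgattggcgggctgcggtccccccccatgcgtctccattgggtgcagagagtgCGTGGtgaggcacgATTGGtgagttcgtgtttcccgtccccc
Dnajc3: ccacaaCCAATcagcgccaaCCACGacccg
Hspe1: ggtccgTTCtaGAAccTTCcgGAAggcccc

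In windows from 250 bases before to 50 after each annotated start, searched on both strands, the ER stress element stood in 3 of the 66 chaperone genes with a window (4.55%) and in 0.137% of the 27025 genes of the table. The genes with it, Hspa5, Hsp90b1 and Dnajc3, are 3 of the 12 ER members with a window, and Hsp90b1 holds it in both orientations. The heat shock element stood in 4 of 66 (6.06%, against 0.662% of all genes), namely Dnajb6, Hsph1, Hspd1 and Hspe1. Hspd1 and Hspe1 share 1 run of 4 units between their RefSeq starts, a stretch that the counted gene model of Hspd1 also covers. The unfolded protein response element TGACGTGG stood in 1 member, Dnajc25 (1.52%, against 0.714%), and TTGCATCA, a site for CHOP and ATF4, in none (against 1.03%). These matches are descriptions of letters in the windows and were not tested for binding.

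The libraries held 26224286 to 26665325 counts for Hepa1-6, 26585350 and 26663336 for E.G7 and 22665563 to 24472849 for LN. The first principal component took 76.0% of the variance and no library stood apart from its group. Foxp3 was present in every library, at a mean of 82.0 CPM (counts scaled to library size, with TMM factors) in Hepa1-6, 50.2 in E.G7 and 109 in LN. The 8 Treg and T cell markers, Foxp3 included, summed to 4786 to 4877 CPM in Hepa1-6, 4240 and 4398 in E.G7 and 4281 to 4464 in LN. Against LN, 1 of them was called higher and 5 lower in each tumour group. Of all genes, 37% were higher and 31.1% lower in Hepa1-6, and 32.7% and 27.2% in E.G7. The higher marker, Ctla4, averaged 1410 CPM in Hepa1-6, 1261 in E.G7 and 410 in LN. Transcripts of other cell types were present too. The summed level of 10 macrophage and neutrophil markers was 3001 to 3332 CPM in Hepa1-6, 667 and 698 in E.G7 and 23.7 to 34.2 in LN, where S100a9 was at 0. For 10 dendritic cell and MHC class II markers it was 9505 to 9889 CPM in Hepa1-6, 1727 and 1787 in E.G7 and 157 to 179 in LN. For 10 CD8 T and NK markers it was 1155 to 1243 CPM in Hepa1-6, 393 and 408 in E.G7 and 65.1 to 76.5 in LN, with Ncr1 at 0 in LN. All 10 macrophage and neutrophil markers and all 10 of dendritic cells and MHC class II were called higher in each tumour group than in LN. For 10 hepatoma markers the sum was 2104 to 2281 CPM in Hepa1-6, 127 and 142 in E.G7 and 29.1 to 35.5 in LN. Serpina1a was at 0 in all groups, Ttr in E.G7 and Krt19 in LN. Apoe alone averaged 631 CPM in Hepa1-6, 128 in E.G7 and 24.9 in LN. For 10 stromal and endothelial markers it was 1020 to 1130 CPM in Hepa1-6, 190 and 222 in E.G7 and 225 to 242 in LN, with Col3a1 at 0 in LN. Pecam1 alone averaged 72.6 CPM in Hepa1-6, 78.7 in E.G7 and 228 in LN, and of these 10 markers 8 were called higher and 1 lower in Hepa1-6 than in LN, and 9 higher and 1 lower in E.G7 than in LN. The 6 B cell markers summed to 370 to 440 CPM in Hepa1-6, 621 and 630 in E.G7 and 827 to 935 in LN. The 6 immature thymocyte and lymphoma markers summed to 64.2 to 75.4 CPM in Hepa1-6, 196 and 205 in E.G7 and 17.6 to 20.01 in LN, with Rag1 at 0 in all groups and Rag2 in E.G7 and LN. The part of these cells in the results below was not tested, and in bulk RNA a different make-up of the sorted cells and a different RNA content per cell cannot be told apart.

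Chaperone genes took up a larger part of the transcripts in both tumour groups than in LN. They made up 1.43% to 1.504% of counts in Hepa1-6 libraries, 1.75% and 1.80% in E.G7 libraries and 1.19% to 1.23% in LN libraries. Their summed level was 15554 to 16501 CPM in Hepa1-6, 17143 and 17821 in E.G7 and 10825 to 11585 CPM in LN, with no overlap between the 3 groups. The plot of compartment sums gives these levels by compartment, and LN was lowest in each. Cytosolic members summed to 11072 to 11761 CPM in Hepa1-6, 12488 and 12875 in E.G7 and 8269 to 8939 in LN. ER members summed to 3187 to 3391 CPM in Hepa1-6, 2819 and 3077 in E.G7 and 1560 to 1636 in LN, so that Hepa1-6 was highest. Mitochondrial members summed to 922 to 1000 CPM in Hepa1-6, 1550 and 1570 in E.G7 and 687 to 738 in LN, so that E.G7 was highest.

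**Figure D1:**
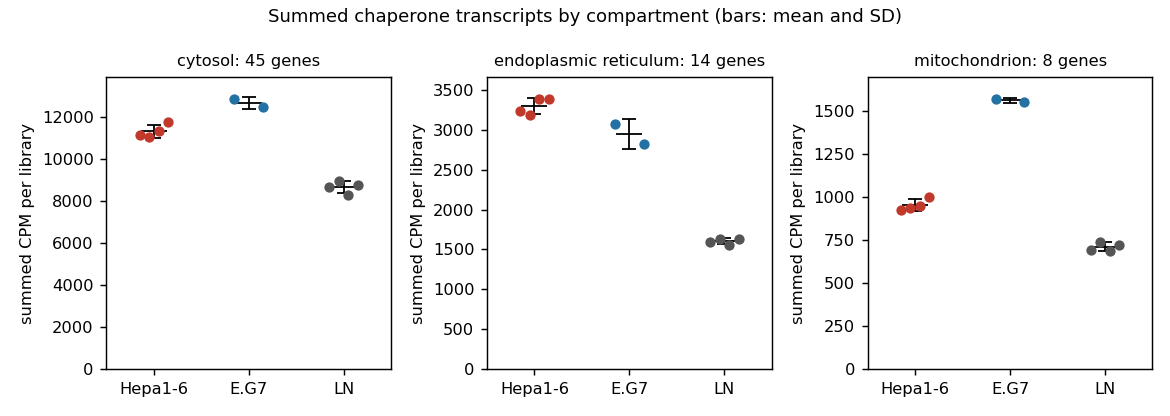
Summed level (CPM) of the chaperone genes of the cytosol, the ER and the mitochondrion in each library (points) of Hepa1-6, E.G7 and LN Treg cells, with mean and SD as bars. Hepa1-6 libraries are highest for the ER and E.G7 libraries for the cytosol and the mitochondrion, and LN libraries are lowest in all 3 panels.

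In Hepa1-6 against LN, 38 of the 76 tested members rose and 13 fell at adjusted p under 0.05 in edgeR's quasi-likelihood test, and 25 were not called. Of all 20068 genes tested, 37% rose and 31.1% fell, so that the members' share of falls was below and their share of rises above the background. Their median log2 fold change was 0.23, against 0.04 over all genes. The split depends on scaling: 47 members rose and 7 fell with scaling to pan T cell genes, which moved the median of all genes to 0.26, and 31 rose and 19 fell with upper-quartile scaling, which moved it to -0.13. In E.G7 against LN, 42 rose and 13 fell, where 32.7% and 27.2% of all genes did, and the median was 0.37 against 0.01. Both comparisons use the same LN libraries. In all, 30 members were higher in both tumour groups than in LN, 6 were lower in both and 7 were called in opposite directions, of which 3 kept both calls under scaling to pan T cell genes. Of all genes, 68% were called in Hepa1-6 and 59.9% in E.G7. Their overlap was not counted, so whether the members' overlap differs from that of all genes is not known. Between the tumours, 16 members were higher and 31 lower in Hepa1-6 than in E.G7, where 26.1% and 19.6% of all genes were, with a median of -0.14 against 0.06.

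Of the 41 tested cytosolic members, 22 rose and 7 fell in Hepa1-6 (median log2 fold change 0.21) and 24 rose and 7 fell in E.G7 (0.47, or 0.42 without Hspb2, which was near 0 in both E.G7 and LN). Of 14 ER members, 9 rose and 2 fell in Hepa1-6 (median 0.47), and 8 rose and 3 fell in E.G7 (0.35). Of 8 mitochondrial members, 3 rose and 1 fell in Hepa1-6 (median -0.01), and 4 rose and none fell in E.G7 (0.50). Of all genes, 37% rose and 31.1% fell in Hepa1-6 and 32.7% and 27.2% in E.G7. The shares of mitochondrial rises in Hepa1-6 and of ER falls in E.G7 were thus near the background. Set directly against E.G7, Hepa1-6 had 7 cytosolic members higher and 18 lower (median -0.24), 4 ER members higher and 2 lower (0.17) and no mitochondrial member higher and 5 lower (-0.38). Of all genes, 26.1% were higher and 19.6% lower, so that the ER shares were near the background.

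**Figure D2:**
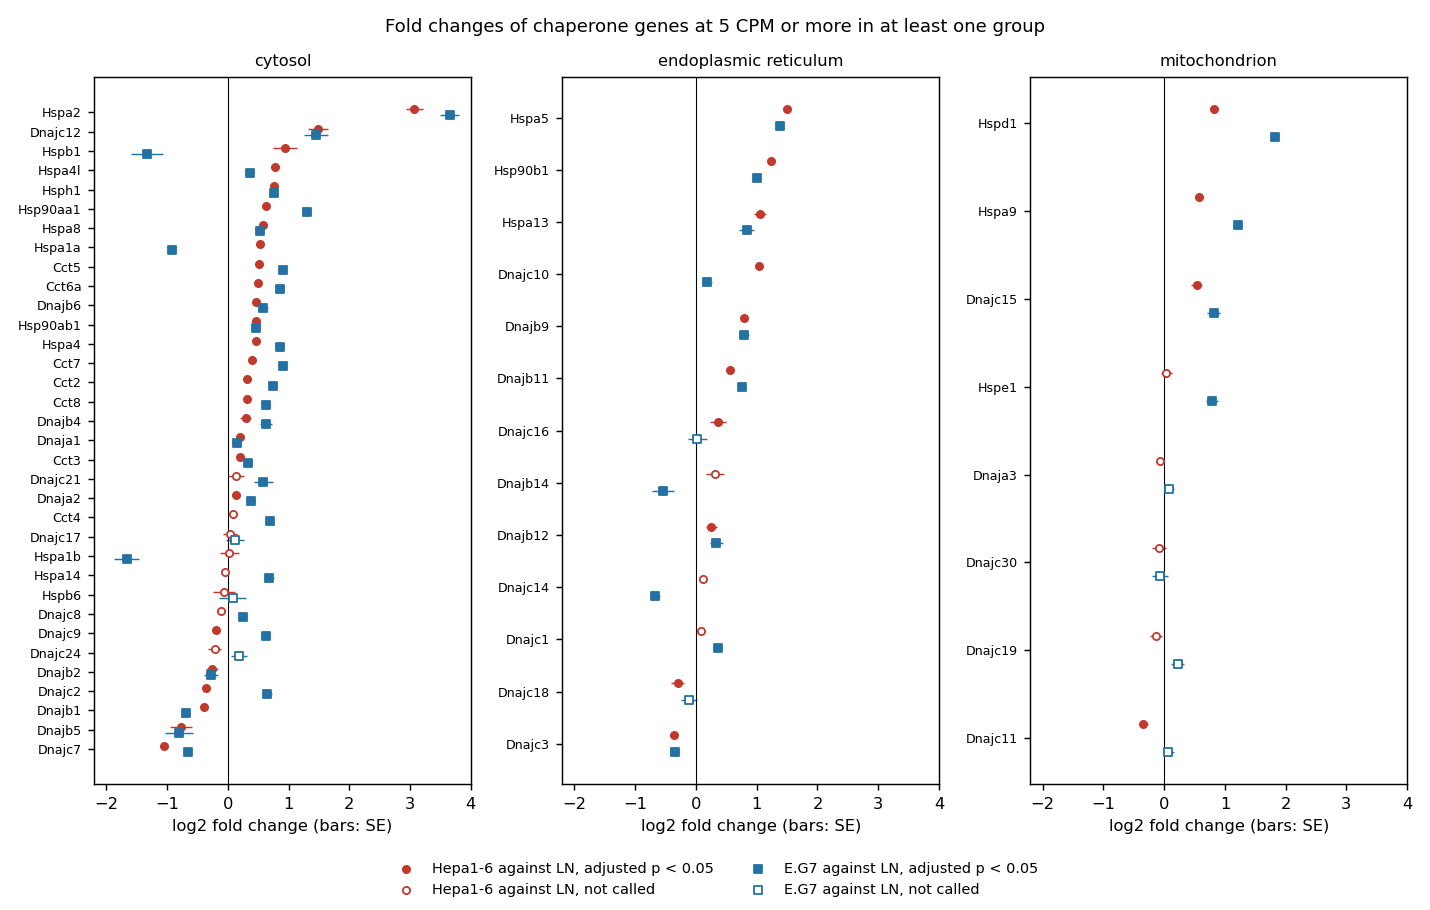
Log2 fold change against LN of 55 chaperone genes with a mean of at least 5 CPM in some group, ordered within each compartment by their value in Hepa1-6 (circles; squares are E.G7), with SE bars; filled symbols passed adjusted p under 0.05 and Hspb8 is left out because of its size. The ER leaders Hspa5 and Hsp90b1 lie close together in both tumours, the mitochondrial leaders Hspd1 and Hspa9 lie further right in E.G7, and Hspa1a lies on opposite sides of 0.

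The ER chaperones that bind new secretory proteins rose in both tumours. Hspa5 encodes BiP, the ER HSP70 and the sensor partner of the unfolded protein response (chromosome 2, 34771970 to 34777547, mm10). It stood at 1648, 1607, 1696 and 1674 CPM in Hepa1-6, 1597 and 1454 in E.G7 and 566, 581, 582 and 603 CPM in LN. Every tumour library was above every LN library, and the log2 fold change was 1.51 in Hepa1-6 (SE 0.042, edgeR adjusted p = 3.01e-14) and 1.39 in E.G7 (SE 0.049, adjusted p = 1.51e-12). Between the tumours Hspa5 differed by 0.12 (SE 0.051, adjusted p = 0.0705), or by 0.18 without E.G7 replicate 1 (adjusted p = 0.0282). BiP transcripts were 10.1% to 10.6% of the summed chaperone level in Hepa1-6, 8.96% and 8.48% in E.G7 and 5.02% to 5.38% in LN.

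Hsp90b1, the ER HSP90 also called GRP94, which folds integrins and Toll-like receptors, stood at 692, 693, 768 and 780 CPM in Hepa1-6, 662 and 592 in E.G7 and 318, 319, 299 and 311 CPM in LN. It rose by 1.23 in Hepa1-6 (SE 0.054, edgeR adjusted p = 7.63e-12) and by 1.01 in E.G7 (SE 0.063, adjusted p = 1.44e-09) on the log2 scale, and the groups did not overlap. The gap of 0.23 between the tumours (adjusted p = 0.0101) was 0.14 without E.G7 replicate 2 (adjusted p = 0.195). Its exons overlap those of 3 other annotated genes, and no source used here gives the strand setting of the counting. Hspa13, a microsomal HSP70, stood at 42.8, 46.4, 50.1 and 45.9 CPM in Hepa1-6, 42.8 and 36.7 in E.G7 and 18.7, 26.8, 22.1 and 21.6 CPM in LN, and rose by 1.05 in Hepa1-6 and 0.83 in E.G7 on the log2 scale (adjusted p = 1.97e-07 and 2.5e-05).

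J-domain partners of BiP went different ways. Dnajb9, an ER J-domain protein that directs misfolded protein to degradation, stood at 113, 106, 111 and 119 CPM in Hepa1-6, 116 and 108 in E.G7 and 72.7, 66.1, 57.8 and 62.4 CPM in LN, a rise of 0.79 in each tumour (edgeR adjusted p = 6.2e-08 and 7.3e-07). Dnajb11, which brings unfolded chains to BiP, stood at 143, 142, 140 and 150 CPM in Hepa1-6, 170 and 159 in E.G7 and 97.7, 101, 95.1 and 94.5 CPM in LN, with rises of 0.57 in Hepa1-6 and 0.76 in E.G7. It was lower in Hepa1-6 than in E.G7 by 0.19 (adjusted p = 0.0166), a difference of 0.15 without E.G7 replicate 1 (adjusted p = 0.151). Both genes thus separated every tumour library from every LN library.

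Dnajc10, a reductase of the ER that cuts disulphide bonds of proteins due for degradation, was higher in Hepa1-6 than in either other group. It stood at 176, 171, 192 and 187 CPM in Hepa1-6, 105 and 97.2 in E.G7 and 91.8, 92.7, 80.3 and 89.5 CPM in LN. It was higher in Hepa1-6 than in LN by 1.03 (SE 0.062, edgeR adjusted p = 3.88e-10) and than in E.G7 by 0.85 (adjusted p = 2.17e-07). In E.G7 against LN the log2 fold change of 0.19 passed narrowly (adjusted p = 0.0406), and not without E.G7 replicate 1 (0.14, adjusted p = 0.25), LN replicate 3 (0.14, adjusted p = 0.107) or LN replicate 4 (0.19, adjusted p = 0.0601), nor with the replicate block (adjusted p = 0.0871). Dnajc14, an ER membrane protein of receptor transport whose exons overlap those of Ormdl2, Sarnp and Tmem198b, stood at 134, 129, 130 and 148 CPM in Hepa1-6, 82.6 and 74.4 in E.G7 and 118, 129, 115 and 139 CPM in LN. It fell in E.G7, by 0.67 (adjusted p = 7.33e-06), and in Hepa1-6 was not called (0.11, adjusted p = 0.163), but with scaling to pan T cell genes it was higher there by 0.33 (adjusted p = 0.000334).

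Dnajc3, the ER co-chaperone also known as an inhibitor of the kinases PERK and PKR, was lower in both tumours although its promoter holds the ER stress element shown above. It stood at 121, 123, 129 and 128 CPM in Hepa1-6, 129 and 126 in E.G7 and 158, 168, 152 and 165 CPM in LN, with falls of 0.36 in Hepa1-6 (SE 0.051, edgeR adjusted p = 1.13e-05) and 0.34 in E.G7 (SE 0.063, adjusted p = 0.000249). In E.G7 this was -0.08 with scaling to pan T cell genes (adjusted p = 0.289). Of the other 6 ER members, Dnajb12 rose in both tumours, Dnajc16 and Dnajc25 in Hepa1-6 and Dnajc1 in E.G7, while Dnajb14 fell in E.G7 and Dnajc18 in Hepa1-6, with called log2 fold changes from -0.55 to 0.73. Several of these calls rest on the scaling or on single libraries. With pan T cell scaling, Dnajc18 in Hepa1-6 was at -0.08 (edgeR adjusted p = 0.533) and Dnajb14 in E.G7 at -0.29 (0.206). That scaling added calls for Dnajb14 and Dnajc1 in Hepa1-6 and Dnajc25 in E.G7. With upper-quartile scaling, Dnajb12 was at 0.07 in Hepa1-6 (0.464) and 0.22 in E.G7 (0.0839), and Dnajc16 at 0.19 in Hepa1-6 (0.21). In Hepa1-6 against LN the edgeR adjusted p was 0.0606 for Dnajb12 without LN replicate 1 and 0.0596 without Hepa1-6 replicate 1. For Dnajc16 it was 0.074 without LN replicate 2, 0.0553 without Hepa1-6 replicate 1 and 0.0616 without Hepa1-6 replicate 3, and for Dnajc18 it was 0.0593 without LN replicate 1, 0.0524 without Hepa1-6 replicate 1 and 0.064 without Hepa1-6 replicate 4. In E.G7 against LN it was 0.137 for Dnajb12 and 0.181 for Dnajb14 without E.G7 replicate 2.

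Of 22 tested genes of a list of ER folding and unfolded protein response genes, 20 rose and none fell in Hepa1-6 (median 0.78), where 37% and 31.1% of all genes did. In E.G7, 19 rose and none fell (0.77), where 32.7% and 27.2% of all genes did. Its summed level was 5446 to 5711 CPM in Hepa1-6, 4693 and 4834 in E.G7 and 2721 to 2897 CPM in LN. Xbp1, a transcription factor of the response and of secretory cells, stood at 409, 410, 409 and 425 CPM in Hepa1-6, 218 and 202 in E.G7 and 134, 131, 123 and 132 CPM in LN (log2 fold change 1.67 in Hepa1-6 and 0.69 in E.G7, edgeR adjusted p = 4.32e-14 and 3.63e-08). P4hb, a protein disulphide isomerase, rose by 1.90 in Hepa1-6 and 0.63 in E.G7, and Calr, the lectin chaperone calreticulin, by 1.37 in Hepa1-6 and 0.99 in E.G7. Both were also higher in Hepa1-6 than in E.G7, P4hb by 1.27 and Calr by 0.38. Ddit3, which encodes CHOP, the factor of prolonged ER stress, was chosen after its values were seen. It stood at 24.8, 25.3, 26.6 and 23.4 CPM in Hepa1-6, 22.3 and 18.8 in E.G7 and 23.8, 27.4, 19.9 and 24.0 CPM in LN, with overlapping groups and no call against LN (log2 fold change 0.07 in Hepa1-6 and -0.21 in E.G7, adjusted p = 0.562 and 0.174).

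In the mitochondrion, the chaperonin and the matrix HSP70 rose most in E.G7. Hspd1 encodes HSP60, which forms the folding chamber of the matrix (chromosome 1, 55077835 to 55088243, mm10). It stood at 318, 323, 333 and 359 CPM in Hepa1-6, 669 and 673 in E.G7 and 188, 189, 186 and 196 CPM in LN, 3 separate levels. The log2 fold change was 0.81 in Hepa1-6 (SE 0.048, edgeR adjusted p = 3.22e-10) and 1.82 in E.G7 (SE 0.056, adjusted p = 2.89e-13), and Hepa1-6 was lower than E.G7 by 1.01 (SE 0.056, adjusted p = 6.31e-10). Hspa9, the matrix HSP70 mortalin that pulls in imported proteins, stood at 308, 315, 311 and 313 CPM in Hepa1-6, 505 and 463 in E.G7 and 205, 224, 202 and 202 CPM in LN. It rose by 0.58 in Hepa1-6 and 1.22 in E.G7 and was lower in Hepa1-6 than in E.G7 by 0.64 (adjusted p = 2.16e-07).

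Hspe1 encodes HSP10, the lid of the HSP60 chamber, and lies head to head with Hspd1, their first exons overlapping. It stood at 69.1, 67.1, 74.7 and 89.2 CPM in Hepa1-6, 120 and 133 in E.G7 and 73.2, 79.0, 66.5 and 73.5 CPM in LN. Only the E.G7 libraries lay apart: the log2 fold change was 0.79 in E.G7 (SE 0.1, edgeR adjusted p = 6.1e-06) and 0.04 in Hepa1-6 (SE 0.086, adjusted p = 0.711), where it was 0.26 with scaling to pan T cell genes (adjusted p = 0.0122). Per kilobase of gene length, the level of Hspd1 was 2.25 to 2.68 times that of Hspe1 in Hepa1-6, 2.83 and 3.11 times in E.G7 and 1.34 to 1.56 times in LN. Processed copies of both genes are scattered over the genome and can share reads with them, so that their levels are uncertain.

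The mitochondrial J-domain genes gave fewer calls. Dnajc15, a partner of the import motor at the inner membrane, stood at 52.5, 50.2, 50.01 and 60.8 CPM in Hepa1-6, 62.1 and 67.6 in E.G7 and 35.9, 40.9, 31.0 and 39.7 CPM in LN, and rose by 0.53 in Hepa1-6 and 0.81 in E.G7 on the log2 scale (edgeR adjusted p = 0.000102 and 1.01e-05). Its difference of -0.28 between the tumours just missed the threshold (adjusted p = 0.0502) and passed without LN replicate 2 (0.0418), LN replicate 3 (0.026) or Hepa1-6 replicate 4 (0.014). Dnaja3, a matrix partner of mortalin, stood at 64.5 to 70.7 CPM in Hepa1-6, 74.3 and 74.6 in E.G7 and 64.9 to 75.2 CPM in LN, with no call in any of the 3 comparisons. Dnajc19, of the import motor, was not called against LN and was lower in Hepa1-6 than in E.G7 by 0.35 (adjusted p = 0.0147), but by 0.36 at adjusted p = 0.0756 without E.G7 replicate 1 and 0.0716 without E.G7 replicate 2; against LN in Hepa1-6 its log2 fold change was -0.21 without Hepa1-6 replicate 4 (adjusted p = 0.0477). Dnajc11, a protein linked to cristae, fell in Hepa1-6 by 0.35 (adjusted p = 0.000764), but was at -0.13 under pan T cell scaling (0.134).

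Of 11 further genes of mitochondrial folding and proteolysis, 4 rose and 1 fell in Hepa1-6 (median 0.07) and 6 rose and 1 fell in E.G7 (0.42). Of all genes, 37% rose and 31.1% fell in Hepa1-6 and 32.7% and 27.2% in E.G7, so that the share of rises in Hepa1-6 was near the background. Grpel2, a nucleotide exchange factor for mortalin, rose in Hepa1-6 by 0.73 and fell in E.G7 by 0.26 (edgeR adjusted p = 3.72e-07 and 0.0299). Htra2, a protease of the space between the membranes, rose by 0.48 in Hepa1-6 and 0.59 in E.G7, and the inner membrane protease gene Yme1l1 fell by 0.55 in Hepa1-6 and was at -0.02 in E.G7 (adjusted p = 0.8). Grpel1, the housekeeping exchange factor, chosen after its values were seen, stood at 74.5, 77.2, 74.1 and 82.5 CPM in Hepa1-6, 149 and 152 in E.G7 and 57.6, 67.0, 56.3 and 66.7 CPM in LN. Its log2 fold change of 1.28 in E.G7 (adjusted p = 1.57e-09) and 0.32 in Hepa1-6 (adjusted p = 0.000809) put E.G7 highest, as for Hspd1 and Hspa9. The share of mitochondrially encoded counts was 1.26% to 1.48% in Hepa1-6, 1.70% and 1.96% in E.G7 and 1.67% to 2.07% in LN.

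**Figure D3:**
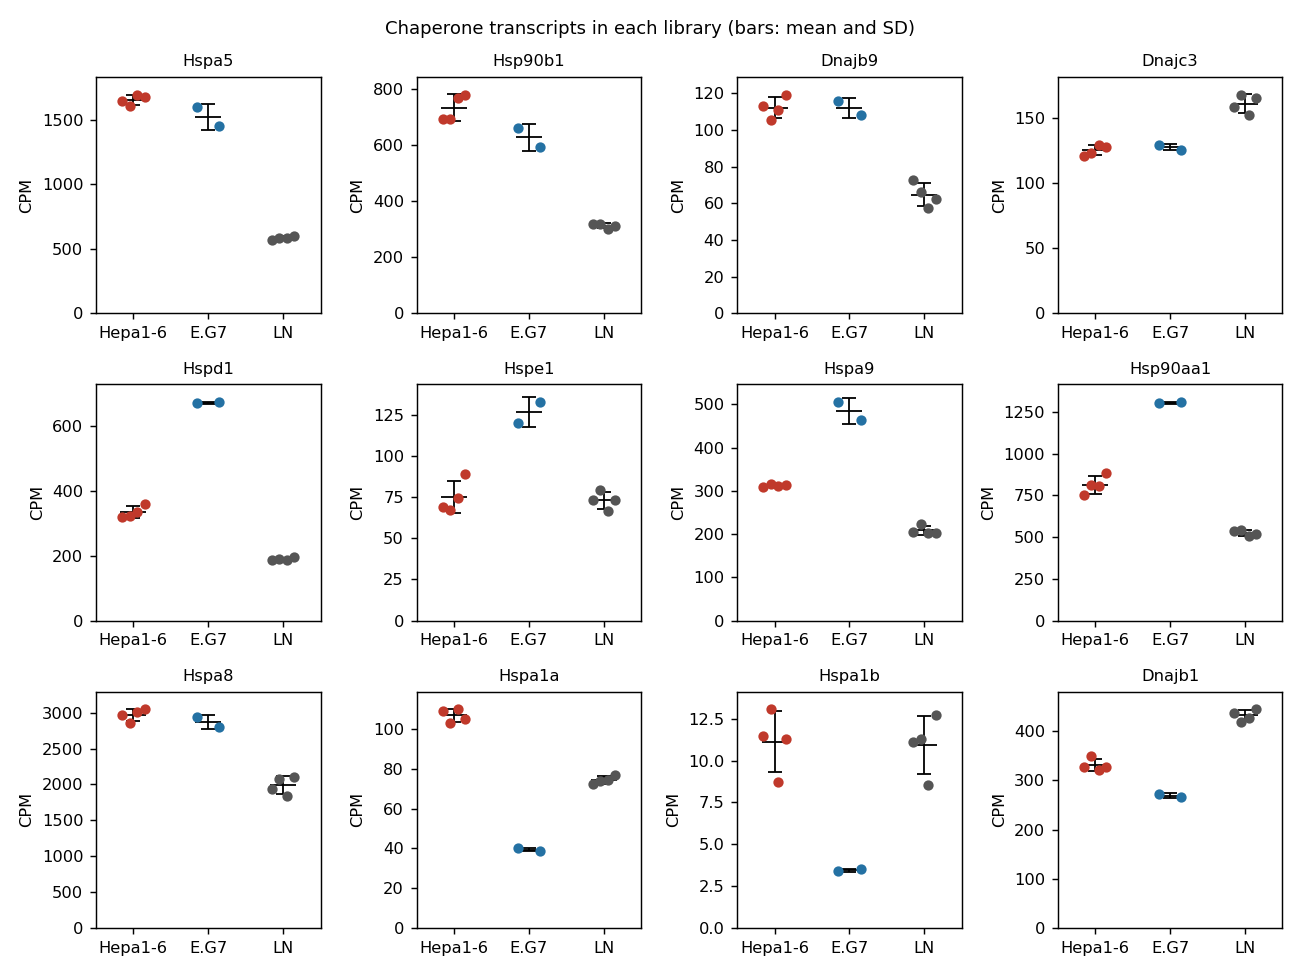
Level (CPM) of 12 chaperone genes in each library (points) of Hepa1-6, E.G7 and LN Treg cells, with mean and SD as bars. Hspa5, Hsp90b1 and Dnajb9 are above LN in both tumours, Hspd1, Hspa9 and Hsp90aa1 are highest in E.G7, and Hspa1a and Hspa1b are lowest in E.G7.

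In the cytosol, the constitutive HSP70 and HSP90 genes Hspa8 and Hsp90ab1 rose in both tumours by similar amounts. Hspa8 encodes HSC70, the HSP70 that cells always make. It stood at 2966, 2853, 3006 and 3050 CPM in Hepa1-6, 2939 and 2807 in E.G7 and 1938, 2077, 1837 and 2101 CPM in LN, a rise of 0.58 in Hepa1-6 (SE 0.046, edgeR adjusted p = 1.41e-08) and 0.53 in E.G7 (SE 0.055, adjusted p = 5.4e-07). Hsp90ab1, the constitutive HSP90, stood at 2275, 2316, 2365 and 2357 CPM in Hepa1-6, 2339 and 2319 in E.G7 and 1707, 1725, 1639 and 1668 CPM in LN, a rise of 0.47 in each. The tumours differed by 0.05 (SE 0.056) for Hspa8 and by 0.00 (SE 0.043) for Hsp90ab1, with adjusted p = 0.532 and 0.995. Per kilobase these were the most abundant chaperone transcripts, with means of 690 CPM per kilobase in Hepa1-6, 668 in E.G7 and 462 in LN for Hspa8, and of 776 in Hepa1-6, 777 in E.G7 and 562 in LN for Hsp90ab1.

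Hsp90aa1, the inducible HSP90 (chromosome 12, 110690605 to 110702728, mm10), instead separated the tumours. It stood at 753, 811, 805 and 885 CPM in Hepa1-6, 1300 and 1310 in E.G7 and 538, 544, 507 and 518 CPM in LN. It rose by 0.63 in Hepa1-6 (SE 0.049, edgeR adjusted p = 1.21e-08) and 1.31 in E.G7 (SE 0.058, adjusted p = 2.1e-11), and Hepa1-6 was lower than E.G7 by 0.68 (adjusted p = 1.06e-07). Per length, its level was 25.2% to 28.6% of that of Hsp90ab1 in Hepa1-6, 42.4% and 43.1% in E.G7 and 23.6% to 24.1% in LN.

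The heat-inducible HSP70 genes Hspa1a and Hspa1b went the other way in E.G7. Hspa1a (chromosome 17, 34969190 to 34972156, mm10) stood at 109, 103, 110 and 105 CPM in Hepa1-6, 40.0 and 38.9 in E.G7 and 72.2, 73.8, 74.5 and 77.0 CPM in LN, 3 levels that did not overlap. It rose in Hepa1-6 by 0.52 (SE 0.054, edgeR adjusted p = 3.35e-07), fell in E.G7 by 0.91 (SE 0.07, adjusted p = 1.44e-08) and was higher in Hepa1-6 than in E.G7 by 1.44 (SE 0.071, adjusted p = 1.7e-10). Hspa1b stood at 11.5, 13.1, 8.71 and 11.3 CPM in Hepa1-6, 3.38 and 3.50 in E.G7 and 11.1, 11.3, 8.56 and 12.7 CPM in LN. It fell in E.G7 by 1.67 (SE 0.21, adjusted p = 4.99e-06), and Hepa1-6 and LN libraries overlapped (log2 fold change 0.03, SE 0.15, adjusted p = 0.886). The coding parts of these genes are nearly identical and reads can be split between them, so that their separate levels are uncertain; exons of Hspa1a also overlap Gm20481.

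Handling of tissue is known to induce Hspa1a and Hspa1b, together with immediate early genes. Of 14 dissociation and immediate early genes, 13 rose and 1 fell in Hepa1-6 (median 1.68) and 12 rose and 2 fell in E.G7 (1.04). Of all genes, 37% rose and 31.1% fell in Hepa1-6 and 32.7% and 27.2% in E.G7. Those that fell were Btg2 in both tumours (means of 510 CPM in Hepa1-6, 390 in E.G7 and 717 in LN) and Jun in E.G7 (584 in Hepa1-6, 235 in E.G7 and 505 in LN). The summed level of the 14 genes was 14289 to 14978 CPM in Hepa1-6, 8672 and 9022 in E.G7 and 5233 to 5621 CPM in LN. Atf3 stood at 409 to 432 CPM in Hepa1-6, 62.9 and 59.2 in E.G7 and 0.0777 to 0.463 CPM in LN. Nr4a1, also a target of the T cell receptor, rose by 2.69 in Hepa1-6 and 2.46 in E.G7 on the log2 scale, and Ier3 by 7.99 in Hepa1-6 and 4.28 in E.G7. In E.G7 the sum of this list stood above LN while Hspa1a and Hspa1b stood below LN, and the part of handling in the chaperone levels was not tested. Relative to Hspa8, per length, Hspa1a was at 5.01% to 5.33% in Hepa1-6, 1.97% and 2.01% in E.G7 and 5.15% to 5.88% in LN.

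Dnajb1, the J-domain gene that heat shock induces together with Hspa1a, was lower in both tumours. It stood at 328, 351, 322 and 326 CPM in Hepa1-6, 272 and 266 in E.G7 and 438, 419, 428 and 445 CPM in LN, with falls of 0.38 in Hepa1-6 (SE 0.044, edgeR adjusted p = 1.3e-06) and 0.69 in E.G7 (SE 0.056, adjusted p = 3.2e-08). Hepa1-6 was above E.G7 by 0.30 (adjusted p = 0.000273). The gene for the main heat shock factor, Hsf1, stood at 126, 122, 126 and 121 CPM in Hepa1-6, 160 and 157 in E.G7 and 175, 160, 205 and 192 CPM in LN, and fell by 0.57 in Hepa1-6 and 0.21 in E.G7 (adjusted p = 1.48e-06 and 0.0369). Hsf2, a second factor of the family, stood at 50.8, 51.8, 57.2 and 65.5 CPM in Hepa1-6, 56.5 and 57.6 in E.G7 and 28.4, 24.9, 27.3 and 28.6 CPM in LN, and rose by 1.04 in Hepa1-6 and 1.06 in E.G7 (adjusted p = 2.63e-08 and 2.32e-07).

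Nucleotide exchange factors of the HSP110 kind, which let HSP70 release its client, rose in both tumours. Hsph1, whose promoter window holds a heat shock element, stood at 278, 281, 264 and 295 CPM in Hepa1-6, 294 and 264 in E.G7 and 163, 163, 165 and 172 CPM in LN, a rise of 0.75 in each (edgeR adjusted p = 2.03e-09 and 2.95e-08). Hspa4 stood at 233, 258, 243 and 264 CPM in Hepa1-6, 342 and 313 in E.G7 and 186, 173, 182 and 186 CPM in LN, with rises of 0.46 in Hepa1-6 and 0.85 in E.G7. Its relative Hspa4l rose by 0.78 in Hepa1-6 and 0.36 in E.G7 and was the higher in Hepa1-6, by 0.42 (adjusted p = 0.000131). Hspa14, an HSP70 bound to ribosomes, rose by 0.68 in E.G7 (adjusted p = 3.11e-06) and was at -0.04 in Hepa1-6 (adjusted p = 0.601), where scaling decided its sign: -0.22 with upper-quartile scaling (adjusted p = 0.00795) and 0.18 with pan T cell scaling (adjusted p = 0.0225).

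Hspa2, an HSP70 best known from the testis (chromosome 12, 76404176 to 76406938, mm10), had the largest rise against LN among members with counts in every library. It stood at 22.2, 19.9, 22.4 and 20.5 CPM in Hepa1-6, 31.5 and 32.0 in E.G7 and 1.98, 2.27, 3.29 and 2.56 CPM in LN. That is 8.40-fold in Hepa1-6 (log2 fold change 3.07, SE 0.14, edgeR adjusted p = 1.43e-11) and 12.6-fold in E.G7 (3.65, SE 0.16, adjusted p = 1.28e-11). Every tumour library lay far above every LN library, and Hepa1-6 was below E.G7 by 0.58 (adjusted p = 0.00316). Hspa12a, a distant HSP70 relative, had 0.289 to 0.910 CPM in Hepa1-6, 1.93 and 1.18 in E.G7 and 3.32 to 5.13 in LN, and fell in both, in E.G7 by 1.11 at edgeR adjusted p = 0.0652 without E.G7 replicate 2.

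The CCT chaperonin, the cytosolic chamber that folds actin and tubulin, rose as a block in E.G7. Of its 8 tested genes, 7 rose in E.G7 (median log2 fold change 0.71) and 6 in Hepa1-6 (0.32), none fell, and 6 were lower in Hepa1-6 than in E.G7 and none higher (-0.40). Of all genes, 32.7% rose in E.G7 and 37% in Hepa1-6, and 19.6% were lower in Hepa1-6 than in E.G7. Cct5 stood at 493, 493, 517 and 539 CPM in Hepa1-6, 684 and 655 in E.G7 and 356, 376, 329 and 360 CPM in LN, with rises of 0.52 in Hepa1-6 (edgeR adjusted p = 1.39e-07) and 0.91 in E.G7 (adjusted p = 2.15e-09). Cct2 rose by 0.32 in Hepa1-6 and 0.74 in E.G7, Cct8 by 0.32 in Hepa1-6 and 0.64 in E.G7 and Cct3 by 0.20 in Hepa1-6 and 0.34 in E.G7. In Hepa1-6 the rises of Cct2 and Cct3 were 0.14 (adjusted p = 0.0549) and 0.02 (adjusted p = 0.697) with upper-quartile scaling. Cct3 differed between the tumours by -0.14 (adjusted p = 0.0809), or -0.16 without Hepa1-6 replicate 4 (adjusted p = 0.0493). The subunit not called in E.G7 was Cct6b, a testis form at 0.124 to 0.844 CPM. Tcp1, the first CCT subunit, whose symbol keeps it out of the naming rule and which was chosen after its values were seen, stood at 240, 226, 232 and 262 CPM in Hepa1-6, 324 and 305 in E.G7 and 183, 197, 181 and 189 CPM in LN, with rises of 0.36 in Hepa1-6 and 0.75 in E.G7.

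**Figure D4:**
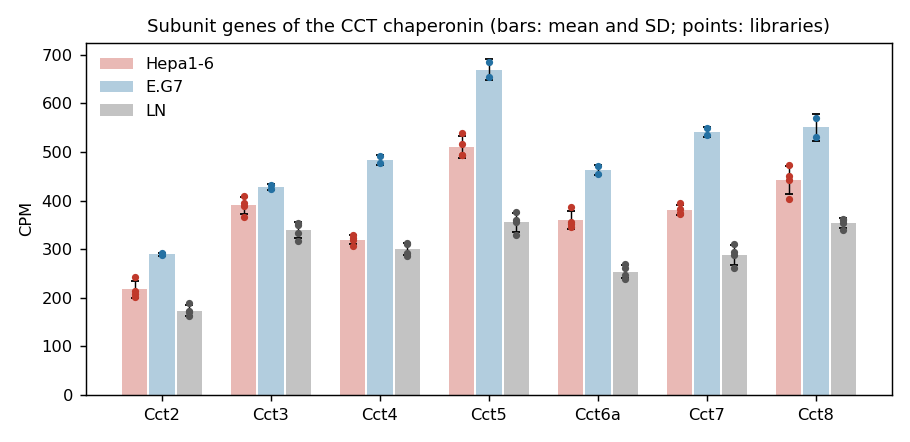
Level (CPM) of 7 CCT subunit genes in Hepa1-6, E.G7 and LN Treg cells; bars are means with SD and points are libraries. For every subunit the E.G7 mean is highest and the LN mean lowest; the gap between Hepa1-6 and LN is smallest for Cct4 (log2 fold change 0.09, edgeR adjusted p = 0.0978).

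Among the 18 tested cytosolic J-domain genes, 5 rose and 7 fell in Hepa1-6 (median -0.15) and 9 rose and 4 fell in E.G7 (0.17). Against 37% and 31.1% of all genes in Hepa1-6 and 32.7% and 27.2% in E.G7, the shares of falls in both tumours and of rises in Hepa1-6 were near the background. Dnajc7, a co-chaperone with tetratricopeptide repeats that passes clients between HSP70 and HSP90, had the deepest fall among those above 5 CPM in Hepa1-6. It stood at 137, 136, 131 and 143 CPM in Hepa1-6, 181 and 175 in E.G7 and 276, 280, 277 and 294 CPM in LN, with falls of 1.05 in Hepa1-6 (SE 0.048, edgeR adjusted p = 1.37e-11) and 0.66 in E.G7 (SE 0.06, adjusted p = 1.05e-07). Its exons overlap those of Cnp and Nkiras2. Dnajb5, a relative of Dnajb1, had 4.33 to 7.01 CPM in Hepa1-6, 5.57 and 5.70 in E.G7 and 7.39 to 11.4 in LN, with falls of 0.77 in Hepa1-6 (adjusted p = 0.00136) and 0.80 in E.G7 (adjusted p = 0.00604, or 0.0508 without E.G7 replicate 1).

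Dnajc2, the ribosome-bound J-domain protein that meets chains as they are made, moved in opposite directions. It stood at 54.8, 53.8, 54.5 and 56.1 CPM in Hepa1-6, 115 and 105 in E.G7 and 72.8, 74.2, 68.3 and 64.7 CPM in LN. It fell in Hepa1-6 by 0.35 (edgeR adjusted p = 0.000111), or by 0.13 with scaling to pan T cell genes (adjusted p = 0.0786), and rose in E.G7 by 0.65 (adjusted p = 1.41e-06), so that Hepa1-6 was lower than E.G7 by 1.00 (SE 0.073, adjusted p = 1.57e-08). Dnajc9, a chaperone of histones in dividing cells, stood at 111, 116, 120 and 135 CPM in Hepa1-6, 216 and 207 in E.G7 and 137, 141, 126 and 144 CPM in LN. It rose by 0.62 in E.G7 and fell by 0.19 in Hepa1-6 (edgeR adjusted p = 0.0197), where its libraries overlapped those of LN. That fall was not called without LN replicate 4 (adjusted p = 0.0569), Hepa1-6 replicate 1 (0.0712) or Hepa1-6 replicate 2 (0.0594), and the value was 0.04 with scaling to pan T cell genes (0.634).

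The general HSP70 partners rose slightly. Dnaja1 stood at 437, 424, 435 and 464 CPM in Hepa1-6, 438 and 413 in E.G7 and 385, 389, 376 and 372 CPM in LN, with log2 fold changes of 0.21 in Hepa1-6 (edgeR adjusted p = 0.000608) and 0.16 in E.G7 (adjusted p = 0.0183, or 0.145 without E.G7 replicate 1 and 0.059 under the replicate block). With upper-quartile scaling they were 0.03 in Hepa1-6 and 0.04 in E.G7, with no call. Dnaja2 rose by 0.38 in E.G7 (adjusted p = 0.000261). In Hepa1-6 its 0.14 only just passed (adjusted p = 0.0499): it failed without LN replicate 1, 3 or 4, without either E.G7 library and without Hepa1-6 replicate 3 or 4 (adjusted p = 0.103, 0.0944, 0.135, 0.0582, 0.0584, 0.059 and 0.187), under the replicate block (0.081) and under upper-quartile scaling, which turned it to -0.04. Between the tumours its -0.24 (adjusted p = 0.0113) failed without E.G7 replicate 2 (0.067). Dnajb4 rose by 0.29 in Hepa1-6 and 0.63 in E.G7, and its rise in Hepa1-6 was 0.11 with upper-quartile scaling (adjusted p = 0.254). Its difference of -0.33 between the tumours failed without E.G7 replicate 1 (adjusted p = 0.131) and with the replicate block (0.0672). Dnajb6, a suppressor of protein aggregation with a heat shock element in its window, rose by 0.47 in Hepa1-6 and 0.59 in E.G7 (adjusted p = 3.1e-06 and 3.01e-06). Dnajc12, a partner of aromatic amino acid hydroxylases, stood at 10.9, 11.2, 9.16 and 11.3 CPM in Hepa1-6, 9.66 and 11.1 in E.G7 and 3.80, 3.51, 2.89 and 4.97 CPM in LN, with rises of 1.49 in Hepa1-6 and 1.45 in E.G7.

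Of 23 cytosolic co-chaperones outside the naming rule, 12 rose, 3 fell and 8 were not called in Hepa1-6 (median 0.31), where 37% and 31.1% of all genes rose and fell. In E.G7, 13 rose, 1 fell and 9 were not called (0.40), where 32.7% and 27.2% did. Set directly against E.G7, Hepa1-6 had 11 lower and none higher (-0.23), where 19.6% and 26.1% of all genes were (median 0.06). Bag2, an exchange factor that blocks the ubiquitin ligase CHIP, stood at 19.5, 16.3, 21.0 and 14.98 CPM in Hepa1-6, 24.4 and 24.0 in E.G7 and 2.33, 2.78, 2.85 and 3.57 CPM in LN, with rises of 2.63 in Hepa1-6 and 3.07 in E.G7 (edgeR adjusted p = 3.04e-10 and 3.5e-10). Bag3, which joins HSP70 to small HSPs and autophagy and is a heat shock target, stood at 46.4, 41.9, 40.4 and 30.7 CPM in Hepa1-6, 34.1 and 38.5 in E.G7 and 12.1, 12.2, 11.4 and 10.9 CPM in LN, with rises of 1.77 in Hepa1-6 and 1.64 in E.G7. Sgta, which guards membrane proteins in the cytosol, rose by 0.50 in Hepa1-6 and 0.56 in E.G7.

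Small HSPs, which bind unfolding proteins without using ATP, differed between the tumours mainly through Hspb8, which was counted almost only in Hepa1-6. Of the other tested cytosolic genes of the family, Hspb1 and Hspb2 were also higher in Hepa1-6 than in E.G7, and Hspb6 and Hspb9 were not called. The 7 cytosolic genes summed to 99.7 to 114 CPM in Hepa1-6, 6.54 and 7.29 in E.G7 and 7.71 to 9.52 CPM in LN. Nearly all of this was Hspb8, the partner of Bag3 (chromosome 5, 116408491 to 116422864, mm10), at 92.8, 102, 87.2 and 90.0 CPM in Hepa1-6, 0 and 0.0368 in E.G7 and 0, 0.0386, 0 and 0 CPM in LN. Its 9021 counts over the Hepa1-6 libraries stood against 1 in E.G7 and 1 in LN. The ratio to LN was 9461 (95% counting interval 1698 to 373724) and that to E.G7 5024 (901 to 198441), intervals that cover counting error only.

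Hspb1, which encodes HSP25, the main heat-inducible small HSP, stood at 5.06, 5.96, 6.02 and 6.97 CPM in Hepa1-6, 1.11 and 1.36 in E.G7 and 2.57, 2.70, 3.29 and 3.92 CPM in LN. It rose in Hepa1-6 by 0.94 (SE 0.19, edgeR adjusted p = 0.00039) and fell in E.G7 by 1.33 (SE 0.27, adjusted p = 0.000456), the direction of Hspa1a in each tumour. Dnajc22, a J-domain membrane protein, had 7.80, 8.11, 8.50 and 8.38 CPM in Hepa1-6, 0.669 and 0.294 in E.G7 and no count in LN. Against a floor of 3 counts over the LN group it was at least 278-fold higher in Hepa1-6 and at least 16.3-fold higher in E.G7. Beside Hspb8 and Dnajc22, the hepatoma markers in the same libraries included Alb, the albumin gene, at 376, 377, 356 and 374 CPM in Hepa1-6, 0.0372 and 0.0736 in E.G7 and 0 to 0.0771 CPM in LN. Of the 8 tested hepatoma markers, 7 were called higher and none lower in Hepa1-6 than in LN (37% and 31.1% of all genes). Against E.G7, 6 were called higher and 1 lower (26.1% and 19.6% of all genes). Apoh averaged 0.360 CPM in Hepa1-6, 1.83 in E.G7 and 0.660 in LN. Apoa2 averaged 0.381 CPM in Hepa1-6, 0.907 in E.G7 and 0.0693 in LN. The part of tumour or other cells in these levels was not tested. Hspb2 and Dnajc5b, at up to 0.536 and 1.03 CPM in Hepa1-6, had no count in LN and were at least 13.98-fold (Hspb2) and 18.9-fold (Dnajc5b) higher in Hepa1-6.

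Among members outside these compartments, several stood out in E.G7. Dnajc6, the neuronal form of auxilin, which uncoats clathrin vesicles, had 2.70, 2.03, 0.990 and 1.32 CPM in Hepa1-6, 17.3 and 17.0 in E.G7 and 4.27, 3.55, 3.82 and 3.96 CPM in LN. It fell in Hepa1-6 by 1.15 and rose in E.G7 by 2.13, so that Hepa1-6 was lower than E.G7 by 3.28 (SE 0.26, edgeR adjusted p = 4.14e-08). Dnajc27, a Rab-like protein, had 10.1, 11.4, 10.7 and 5.41 CPM in Hepa1-6, 29.2 and 25.3 in E.G7 and 15.5, 12.3, 15.8 and 13.3 CPM in LN, with a fall of 0.60 in Hepa1-6 (adjusted p = 0.0104, or 0.0951 with scaling to pan T cell genes) and a rise of 0.94 in E.G7. Hspb11, which despite its symbol is a part of the transport machinery of cilia, had 7.43, 6.74, 5.86 and 8.75 CPM in Hepa1-6, 21.2 and 19.6 in E.G7 and 7.51, 9.52, 7.31 and 6.76 CPM in LN. It rose in E.G7 by 1.39 and was not called in Hepa1-6 (-0.11, adjusted p = 0.53). Dnajc5, a chaperone of synaptic and secretory vesicles, had 229, 243, 232 and 234 CPM in Hepa1-6, 153 and 141 in E.G7 and 191, 176, 198 and 186 CPM in LN, a rise of 0.32 in Hepa1-6 and a fall of 0.35 in E.G7, where the value was -0.09 with scaling to pan T cell genes (adjusted p = 0.314). Of the immature thymocyte and lymphoma markers, Trap1a averaged 0.0516 CPM in Hepa1-6, 127 in E.G7 and 0.0488 in LN. Dntt averaged 2.84 CPM in Hepa1-6, 46.6 in E.G7 and 2.30 in LN, whereas Cd8b1 was highest in Hepa1-6, at 66.5 CPM against 27.1 in E.G7 and 16.1 in LN. Their part was not tested.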

How the data were processed

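Total RNA was taken up in TRIzol and sequenced by BGI Genomics on a BGISEQ-500, per the labels. The deposited table holds raw counts per gene and, per the file headers, the exon columns of featureCounts; HISAT2, featureCounts, Subread, RSEM and DESeq2, and the mm10 build, are named in the submitters' processing notes, without versions. The deposited FPKM tables were not used.

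Counts of 20068 genes kept by filterByExpr were scaled by TMM and fitted in edgeR 4.0.16 (R 4.3.3) with a quasi-likelihood model and a term per group over all 10 libraries. Calls are at Benjamini-Hochberg adjusted p under 0.05 over all genes, with no minimum fold; SE was obtained as log2 fold change over the root of F. The method was tested on simulated data. Replicates differed by more than sampling noise (chi-square per degree of freedom 7.41 to 18.9). Of 98 IDs that matched the naming rule, 16 marked -ps were dropped; 31 members overlap exons of another gene and 11 were under 1 CPM in every group. Not every member's result is reported here.

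Members, classes and lists were chosen with earlier results of these data known. Named genes were a fixed core set, the 5 largest changes per direction in each comparison (at least 5 CPM in the higher group, no overlap of libraries) and the 3 smallest adjusted p of each related list in Hepa1-6 against LN. Alternatives were RLE, upper-quartile and pan T cell scaling, DESeq2 1.42.0, limma-voom (limma 3.58.1), a minimum mean of 10 CPM, no filter, only the groups compared, a replicate block and each library left out. Depth sets a floor of 3 counts over a group, 0.0309 CPM in Hepa1-6, 0.0555 in E.G7 and 0.0295 in LN.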

Additional observations from a re-analysis of the deposited data

Results flagged for a closer look

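A total of 6 of 92 groups of 4 libraries, over the named genes, held a library far from the others by the ratio of its gap to the group's range, where chance gives about 1 in 20. They were Dnaja2 (0.867) and Dnajc12 (0.830) in Hepa1-6, and Dnajb4 (0.843), Dnajb6 (0.830), Hspa9 (0.855) and Hspb8 (1.0, a single count) in LN. The high or low libraries were not the same throughout, and none was left out.

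The test of Hepa1-6 against E.G7 called 47 of the 76 tested members, where 45.6% of all genes were called. For these 47, the responses relative to the shared LN libraries differed between the tumours. Among these, 7 were called higher than LN in one tumour and lower in the other. The share of all genes called in this way was not counted, so whether these 7 exceed it is not known. Under pan T cell scaling, 3 of them, Dnajc6, Hspa1a and Hspb1, kept both calls, while Dnajc2, Dnajc9 and Dnajc27 lost the call in Hepa1-6 and Dnajc5 that in E.G7. Their log2 difference, Hepa1-6 minus E.G7, was 1.44 for Hspa1a, 2.27 for Hspb1 and 0.67 for Dnajc5, and -1.004 for Dnajc2, -0.81 for Dnajc9, -1.54 for Dnajc27 and -3.28 for Dnajc6 (edgeR adjusted p from 1.7e-10 to 2.67e-05).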

How the results depend on the processing

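Of 2431 comparisons of a gene's value under an alternative with that reported, over 129 pairs of gene and comparison, 2355 kept direction and side of the threshold, 41 lost and 33 gained a call, and 2 turned: Dnaja2 in Hepa1-6 against LN to -0.043 with upper-quartile scaling and Hspa14 to 0.18 with pan T cell scaling. Counts of members called stayed within 1.5 times, except 7 lower in Hepa1-6 against LN with pan T cell scaling and 8 lower in E.G7 against LN at 10 CPM. For Hepa1-6 against LN, cytosol, ER and mitochondrion gave 0.029, 0.29 and -0.19 with upper-quartile and 0.43, 0.69 and 0.21 with pan T cell scaling; without a filter the mitochondrion gave -0.044, and at 10 CPM the ER gave 0.32 and the mitochondrion -0.058. For E.G7 against LN they were 0.35, 0.23 and 0.39 with upper-quartile and 0.73, 0.61 and 0.77 with pan T cell scaling. There the mitochondrion gave 0.55 with RLE and with DESeq2, 0.54 without a filter and 0.42 at 10 CPM, the cytosol 0.56 without a filter and 0.38 with limma-voom, and the ER 0.26 at 10 CPM. For Hepa1-6 against E.G7 the ER gave 0.11 with upper-quartile scaling, 0.10 without a filter and 0.094 with only the groups compared. The mitochondrion gave -0.45 with upper-quartile scaling and without a filter, -0.42 under pan T cell scaling, -0.35 at 10 CPM and -0.46 with only the groups compared. The filters test fewer or more genes; for the rest the cause was not tested.

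Leaving out each library in turn gave 34 to 39 higher and 10 to 14 lower in Hepa1-6 against LN, 39 to 42 and 9 to 13 in E.G7 against LN, and 12 to 17 and 24 to 33 in Hepa1-6 against E.G7. For Hepa1-6 against LN the medians were 0.18 to 0.23 (cytosol), 0.45 to 0.50 (ER) and -0.052 to 0.020 (mitochondrion). For E.G7 against LN they were 0.37 to 0.48, 0.31 to 0.39 and 0.45 to 0.55, and for Hepa1-6 against E.G7 -0.27 to -0.13, 0.077 to 0.24 and -0.41 to -0.36. A lone E.G7 library was assumed to vary like the other groups.

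Same-numbered libraries had correlations of -0.099 to 0.074 in their deviations from group means, and differently numbered ones of -0.087 to 0.099. With 2 E.G7 libraries, the deviations of 1 mirror those of the other, so whether the replicate numbers pair the samples was not settled. With the replicate block, 38 members were higher and 13 lower in Hepa1-6 against LN, 39 and 12 in E.G7 against LN, and 14 and 27 in Hepa1-6 against E.G7, where the ER median was 0.070. E.G7, with 2 libraries, has the least precision.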
